A study of Rattus norvegicus with 10 samples.

Results

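Ribosomal proteins are the protein part of the ribosome, and their mRNAs are among the common mRNAs of a secreting cell. The probes examined here are the non-control probes of the array whose gene name is a cytosolic ribosomal protein of the large (Rpl) or small (Rps) subunit, the stalk proteins Rplp and the laminin receptor protein Rpsa included and the Rps6k kinases left out. They are 78 gene names of 35469 on the array, measured by 122 of 41012 non-control probes. Whey was collected from 3 F344/N rat dams on d 2, d 9 and d 16 postpartum, which gives 3 arrays per day, and serum was drawn from the same dams on d 21. The dams were 14 weeks old when they arrived pregnant. All received oxytocin before milking and were milked under light sevoflurane anesthesia. The whey was spun and passed through filters to take away fat, casein and cells, so these arrays measure RNA of the cell-free fraction. The serum RNA of the 3 dams was mixed before labeling, and serum therefore has 1 array and no replicate.

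Each array was a 1-colour Agilent Whole Rat Genome array with 60-base probes, on which labeled RNA from 100 ng total RNA was hybridized. The 75th percentile of the processed signal ran from 12.5 to 83.2 over the whey arrays and was 4.11 on the serum array, while the 9 spike-in probes, which report RNA added in a fixed amount, moved by 1.48-fold over all 10 arrays. The 3 arrays of d 16 and the serum array shared a slide that was scanned apart from the other 6 arrays, so d 16 and that slide cannot be told apart. Of the d 2 arrays, dams 1 and 2 were on a slide of their own, and dam 3 shared a slide with d 9. All 7 milk protein and mammary secretory markers were well above background on every whey array, and their probes held 4.69 to 11.2% of the summed signal there. No marker of liver was above background on all arrays of any day. Of 10 macrophage markers, 3 were above background on every d 2 array and 7 on every d 16 array, and their summed share went from 0.00262 to 0.00411% on d 2 to 0.00979 to 0.0149% on d 16.

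Most ribosomal proteins bind at a fixed place on the ribosomal RNA. A ribosome needs about equal numbers of nearly all ribosomal proteins, and cells control their mRNAs together. In mammals this runs through the 5′ terminal oligopyrimidine (TOP) motif, a C at the cap followed by a run of C or T, through which the mTOR pathway sets how strongly these mRNAs are translated. The lactating mammary gland makes large amounts of milk protein. Rpl and Rps mRNAs are often taken as reference genes because their level is steady in many tissues.

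The motif was looked for in RefSeq promoters (GRCr8), as a C at the annotated start and 4 or more C or T after it, on the gene's strand only. Of the 62 member genes with a promoter sequence, 23 had such a run (37.1%), beside 2.63% of all 33469 promoters. The other 16 gene names had no entry. Below are 4 windows from 20 bases before the start to 25 bases from the start on, with the run in capitals. The windows were picked from the genes with such a run. They show the motif at a stalk gene (Rplp1), 2 genes whose probes changed (Rpl17 and Rpl19) and a reference gene (Rps18).
Rplp1, chr8:71290848-71290892, minus strand: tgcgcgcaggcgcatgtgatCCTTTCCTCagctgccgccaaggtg
Rpl17, chr18:70856256-70856300, plus strand: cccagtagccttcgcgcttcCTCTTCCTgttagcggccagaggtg
Rpl19, chr10:83519044-83519088, plus strand: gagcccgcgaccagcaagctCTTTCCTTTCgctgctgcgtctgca
Rps18, chr20:4933725-4933769, plus strand: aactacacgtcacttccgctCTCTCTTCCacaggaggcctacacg
At Rps9, Rpsa, Rps28 and Rps27a, each with a probe that changed as well, no annotated start has such a run. The Rps9 window shows a run of T and C that begins before the annotated base. The absence of a match says only that these letters are not there.
Rps9, chr1:74430413-74430457, minus strand: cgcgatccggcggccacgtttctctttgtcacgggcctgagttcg

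Ribosomal protein mRNAs were found in the whey of every dam on every day. Of the 122 probes, 119 were detected on d 2, 119 on d 9 and 119 on d 16 (97.5% each), beside 28.7, 39 and 32.3% of all probes. All 119 were well above background on all 9 whey arrays, as were 23.9% of all probes. In serum 113 were detected (92.6% of members, beside 8.6% of all probes). The 3 probes above background on no array were Rpl26l1 A_44_P140342, Rpl37a A_44_P135958 and Rpl28 A_44_P778019. Rpl37a and Rpl28 each have another probe that was well above background on every array.

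The probes also held a large part of all signal. On d 2 the share of the summed processed signal was 17.8, 19.2 and 20.1% for dams 1, 2 and 3. On d 9 it was 19.8, 21.2 and 22.8%, and on d 16 18.7, 20.2 and 18.9%. As groups the days overlapped, at 19 ± 1.14% on d 2, 21.3 ± 1.51% on d 9 and 19.3 ± 0.832% on d 16 (mean ± SD, n = 3). Within each of the 3 dams the share was higher on d 9 than on d 2 and lower again on d 16, and no test was made. That order held with normexp background correction but not without the 20 brightest probes of each array. There the share fell from d 2 to d 9 in each dam (23.9 to 22.9, 22.5 to 21.9 and 20.9 to 19.2%). In dam 3 it was then higher on d 16 (21.6%) than on d 9. The ribosomal protein probes make up 0.297% of the non-control probes by number. Large subunit probes held 10.4 to 13.6% and small subunit probes 7.41 to 9.25% over the whey arrays. In the serum pool the share was 7.61%, below every whey array by 2.34 to 3.0-fold. With normexp background correction the serum share was 4.74% and the d 2 mean was 11.7%, and d 2 of dam 2, at 4.66%, was then below serum. The erythroid markers, of which 4 of 10 are on the array, held 7.08% of the signal in serum and at most 0.00239% in whey; their part in the lower share was not tested. Without the 20 brightest probes of each array the serum share was 19%, against 22.4, 21.4 and 21.8% on the 3 days of whey. That step took 3 to 10 ribosomal protein probes from each whey array and 0 from serum.

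**Figure D1:**
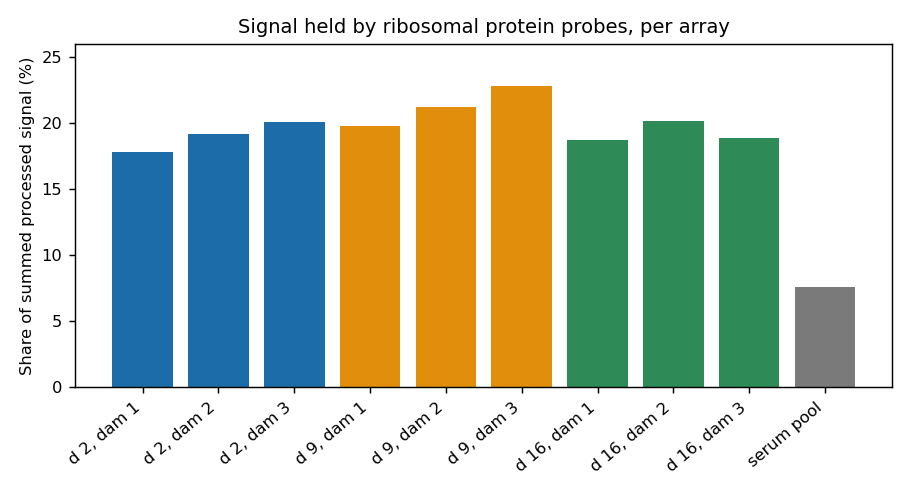
Share of the summed processed signal of all non-control probes that the 122 ribosomal protein probes held, in percent, 1 bar per array. The 9 whey arrays lie between 17.8 and 22.8% and the serum pool lies at 7.61%.

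The level of the members relative to the rest of the array hardly moved. On the log2 scale after quantile normalization, the SD over the 9 whey arrays had a median of 0.14 over the 119 detected members, from 0.04 to 0.93, beside 0.29 over the 9821 probes that were well above background on all whey arrays. Of the members, 109 were below that median of 0.29. The highest and the lowest whey value were within 2-fold for 110 of the 119 members (92.4%), beside 60.2% of all such probes, and the median ratio of highest to lowest was 1.34-fold for members and 1.82-fold for all. Bright probes vary less in general. Among the 982 brightest of these probes the 107 members had a median SD of 0.13 and the 875 others one of 0.18. The difference from all probes also depended on the background correction. With normexp the members' median stayed at 0.14, but that of all probes became 0.16.

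Within a day, members had a median SD of 0.1. Rplp1, a protein of the stalk that recruits translation factors, is printed 10 times on the array, and the SD over these spots was 0.034 to 0.086 (log2) on any array. The SD of the same probe over the 9 whey arrays was 0.13.

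The steadiest probe was Rpl21 A_44_P473767, for a large subunit protein. Its log2 signal was 13.52, 13.54 and 13.46 on d 2 for dams 1 to 3, then 13.44, 13.47 and 13.56 on d 9 and 13.47, 13.49 and 13.44 on d 16, so all whey arrays lay within 1.09-fold and the days overlapped. Next came a further Rpl21 probe, A_44_P487819 (SD 0.06), Rpl26 A_44_P1020708 (0.06), Rps10 A_44_P135843 (0.06), Rpl27 A_43_P14014 (0.07) and Rpl29 A_44_P651922 (0.07). Their genes encode proteins of both subunits. Rpl21 A_44_P473767 and Rpl29 A_44_P651922 share 30 or more bases with a probe of another gene name, so their signal may hold that of a near copy.

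**Figure D2:**
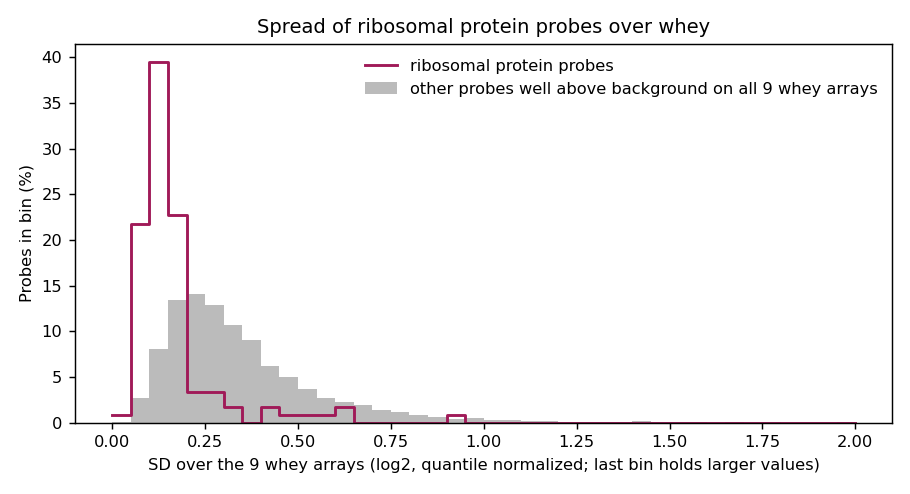
Distribution of the SD of log2 signal over the 9 whey arrays, as percent of probes per bin of 0.05, for the 119 ribosomal protein probes (line) and the other probes with signal above background on each whey array (grey). The members gather around their median of 0.14, left of the median of 0.29 over all such probes, and a tail reaches 0.93.

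The kind of record behind a probe differed along this range, with overlap. The 110 probes designed on a curated RefSeq mRNA had a median SD of 0.13 over the 109 detected (0.04 to 0.59), and the 12 designed on an expressed tag, a predicted or Ensembl transcript or another record had one of 0.37 over the 10 detected (0.08 to 0.93). The 5 largest SD were at Rps28 A_44_P302245 (0.93), Rpl37a A_44_P179210 (0.64), Rpl37 A_44_P137047 (0.61), Rps26 A_43_P11759 (0.59) and Rpl7l1 A_44_P265374 (0.51), of which only the Rps26 probe had a curated mRNA. These 5 probes were also dim, and the part of either in the spread was not tested. One more large SD came from a single array. Rps20 A_44_P401809 read 13.26, 13.16 and 11.75 on d 2 and 12.99 to 13.14 on the other 6 whey arrays, while the other Rps20 probe read 15.12, 15.18 and 15.1 on d 2.

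The genes Rps25, Rpl37, Rpl37a and Rps15 had probes that the array design (rn4) lists in opposite directions on the same chromosome. For Rps25, a small subunit protein, both probes cover the same 60 bases at chr8:47375104-47375163 and are exact reverse complements, as the first and the last 12 bases in capitals show.
Rps25 A_42_P468038, plus strand: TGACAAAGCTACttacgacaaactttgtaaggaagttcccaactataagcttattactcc
Rps25 A_44_P967625, minus strand: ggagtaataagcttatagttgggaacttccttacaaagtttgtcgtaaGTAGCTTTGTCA
The plus strand probe was designed on the curated mRNA. In whey its processed signal ran from 3.51e+03 to 2.09e+04, a range of 5.95-fold. The minus strand probe, designed on an expressed tag, was well above background on all whey arrays too, but its signal ran from 870 to 2.28e+03, a range of 2.62-fold. The mRNA probes of Rpl37 (A_43_P12513), Rpl37a (A_44_P995038) and Rps15 (A_43_P15268) had ranges of 6.67, 6.09 and 6.76-fold, and the opposite probes, all on expressed tags, had ranges of 1.72, 1.71 and 5.45-fold. For Rpl37a the mRNA probe is listed on chromosome 5, and the probe on chromosome 9 that runs against A_44_P179210 is the one above background on no array.

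The array with the highest 75th percentile of signal, d 9 of dam 3 (83.2), had the lowest quantile normalized value of the opposite probes: 9.13 for Rps25, 5.12 for Rpl37, 5.84 for Rpl37a and 8.71 for Rps15. The array with the lowest 75th percentile, d 2 of dam 1 (12.5), had the highest: 10.65, 7.26, 7.96 and 9.25. Between these arrays the 75th percentile itself moved 6.66-fold. None of them passed the test between days. Which RNA they bind was not tested.

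**Figure D3:**
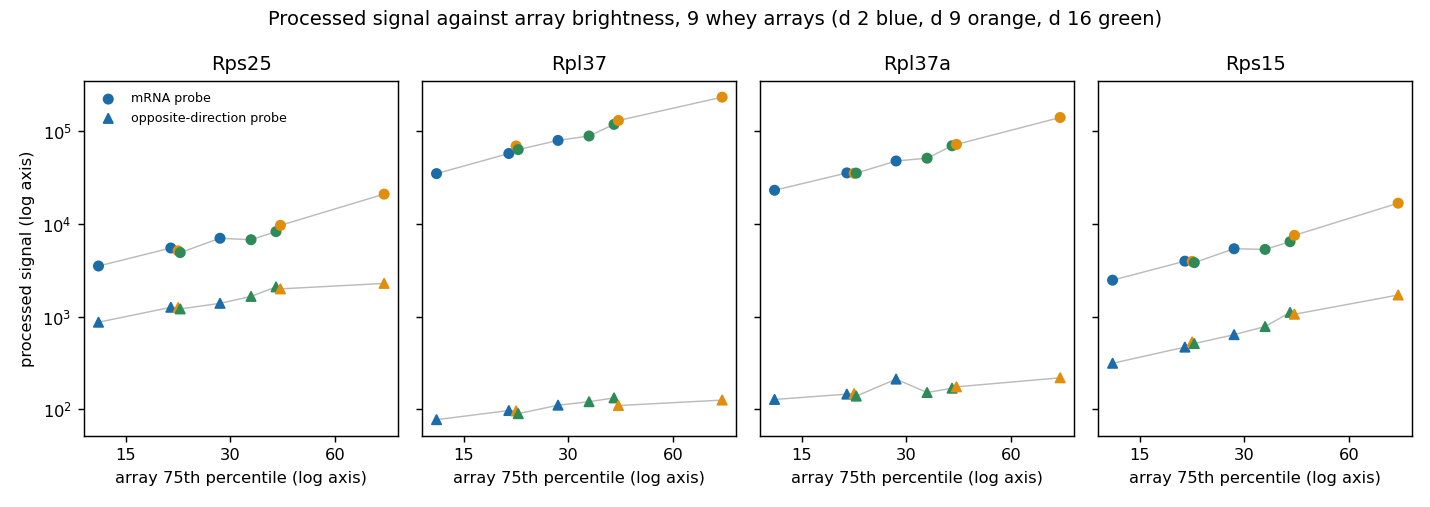
Processed signal of the mRNA probe (circles) and the probe listed in the opposite direction (triangles) of 4 ribosomal protein genes against the 75th percentile of all signals, both on log axes, for the 9 whey arrays. The mRNA probes span 5.95 to 6.76-fold and the opposite probes of Rps25, Rpl37 and Rpl37a span 2.62, 1.72 and 1.71-fold, while that of Rps15 spans 5.45-fold.

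The next question was which members changed between days. From d 2 to d 9, 1 of 119 members passed an adjusted p of 0.05 in limma (0.84%), beside 17.6% of all 16849 probes tested. With the dam as a block 2 members passed, beside 18.4%. The members' median log2 change was 0.07 and that of all probes 0.11. From d 2 to d 16, 8 members passed (6.72%, beside 28.5% of all probes), of which 2 rose (1.68%, beside 16%) and 6 fell (5.04%, beside 12.4%). The median was -0.08, beside 0.04. From d 9 to d 16, no member passed in limma (beside 1.42% of all probes), and 16 members had an unadjusted p under 0.05 (13.4%, beside 18.7%). The Tukey-Kramer test named in the study's methods gave 0 there, as it did over all probes (0%). A mean-variance trend in limma gave 1 member (beside 3.88%), and normexp gave 12 of 119 that were lower on d 16 (beside 5.07%). The median from d 9 to d 16 was -0.15, beside -0.06. Large and small subunit medians stayed close, at 0.05 and 0.09, -0.07 and -0.1, and -0.14 and -0.16 for the 3 pairs of days.

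The share of members whose 3 values on one day lay apart from the 3 on the other was nearer to the background. Between d 2 and d 9 it was 34 of 119 (28.6%, beside 38.8%). Between d 2 and d 16 it was 56 (47.1%, beside 48.2%), and between d 9 and d 16 it was 40 (33.6%, beside 29.3%). The changes of the members were small instead, with the middle 50% of members between -0.19 and 0.04 from d 2 to d 16, beside -0.39 and 0.54 for all probes. An F test over the 3 days called 6 members (5.04%, beside 25.6%) and 3 with the dam as a block (beside 25.7%). The 6 were both Rps28 probes named next, Rpsa, Rps9, Rpl15 and Rpl7l1 A_44_P265374. These calls depended on single arrays, and those over all probes fell too. The F test called 0 without d 16 of dam 3 (beside 14.5%) and 1 without d 2 of dam 2 (beside 14.2%). It called 2 without d 2 of dam 1, d 2 of dam 3 or d 16 of dam 2 (beside 20.5, 19.9 and 16.9%).

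Rps28 was the only gene with members that rose from d 2 to d 16. It encodes a protein near the mRNA exit of the small subunit. Probe A_44_P302250 (chr7:16319907-16319966, rn4) read 15.39, 15.3 and 15.39 on d 2, 15.63, 15.81 and 15.83 on d 9 and 15.7, 15.93 and 15.83 on d 16, so every array of d 9 and d 16 was above every array of d 2. The change from d 2 to d 16 was 0.46 ± 0.12 (log2, SE, limma adjusted p = 0.0222), or 1.38-fold, and from d 2 to d 9 it was 0.4 ± 0.12 (adjusted p = 0.0514). The probe A_42_P468632 for the same mRNA changed less over the same days, by 0.34 ± 0.16 (adjusted p = 0.164), and did not pass.

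The larger change was at A_44_P302245, which the array also names Rps28. It read 6.16, 5.62 and 5.52 on d 2, 6.82, 7.1 and 5.88 on d 9 and 7.41, 7.55 and 8.12 on d 16. The change from d 2 to d 16 was 1.93 ± 0.35 (log2, SE, limma adjusted p = 0.00682), or 3.8-fold. This probe rests on a predicted transcript placed at chr16:71041983-71181070 (rn4), and the longest stretch it shares with A_44_P302250 is 6 bases. Both sequences are given to show this. Whether it measures Rps28 was not tested.
Rps28 A_44_P302250: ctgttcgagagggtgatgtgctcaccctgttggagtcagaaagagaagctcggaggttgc
Rps28 A_44_P302245: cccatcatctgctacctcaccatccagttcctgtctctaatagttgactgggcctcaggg

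The 6 members that fell from d 2 to d 16 were 4 of the small and 2 of the large subunit. Rpsa, a small subunit protein that is also known as the laminin receptor, was measured by A_44_P149036 (chr8:125101039-125101642, rn4) at 13.27, 13.02 and 13.04 on d 2, 12.94, 12.93 and 13.04 on d 9 and 12.54, 12.68 and 12.41 on d 16. All d 16 values were below all others, and the change was -0.57 ± 0.12 (log2, SE, adjusted p = 0.0136). The second Rpsa probe, A_44_P117107, had a change of -0.33 ± 0.12 (adjusted p = 0.0746).

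Rps9, which lies at the mRNA entry of the small subunit, read 14.23, 14.27 and 14.23 on d 2, 13.95, 13.96 and 13.97 on d 9 and 13.87, 13.81 and 13.81 on d 16 (A_44_P553665, chr1:63825767-63825826, rn4). No day overlapped another. The change from d 2 to d 16 was -0.41 ± 0.09 (adjusted p = 0.016), or 1.33-fold lower, and from d 2 to d 9 it was -0.28 ± 0.09 (adjusted p = 0.0784).

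Rps27a, which is made as a fusion with ubiquitin, read 14.44, 14.26 and 14.2 on d 2, 14.13, 13.87 and 14.32 on d 9 and 13.84, 13.72 and 13.65 on d 16 (A_42_P561580). Days 2 and 9 overlapped, and the change to d 16 was -0.56 ± 0.15 (adjusted p = 0.0252). Rps25 A_42_P468038, the plus strand probe shown above, read 12.69, 12.63 and 12.51 on d 2 and 12.37, 12.21 and 12.19 on d 16, and its change was -0.35 ± 0.11 (adjusted p = 0.0475). With the dam as a block it did not pass (adjusted p = 0.0594). It shares 30 or more bases with a probe of another gene name, as do 13 member probes in all, so its signal may hold that of a near copy.

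Rpl17 and Rpl19 lie around the exit of the peptide tunnel. Rpl17 A_44_P121051 read 14.16, 14.21 and 14.27 on d 2, 14.12, 14.28 and 13.9 on d 9 and 13.94, 13.16 and 13.16 on d 16, and its change was -0.79 ± 0.22 (adjusted p = 0.0337). On d 16, dams 2 and 3 were low and dam 1 was near the d 9 values, and the other Rpl17 probe, A_44_P503579, had a change of -0.18 ± 0.15 (adjusted p = 0.409). That other probe shares 30 or more bases with a probe of another gene name. Rpl19 A_44_P306185 read 13.43, 13.48 and 13.51 on d 2, 13.15, 13.18 and 13.35 on d 9 and 13.17, 13.04 and 13.02 on d 16. Its change was -0.4 ± 0.11 (adjusted p = 0.0305), which did not pass with the dam as a block (adjusted p = 0.0508), and that of Rpl19 A_43_P14985 was -0.14 ± 0.1 (adjusted p = 0.363).

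The called probes of 4 of these genes are given here, since a second probe of Rpsa, Rpl17 and Rpl19 did not pass and the sequence tells which stretch of the mRNA was measured.
Rpsa A_44_P149036: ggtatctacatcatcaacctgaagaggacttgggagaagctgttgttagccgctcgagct
Rps9 A_44_P553665: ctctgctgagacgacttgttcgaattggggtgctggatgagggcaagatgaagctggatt
Rpl17 A_44_P121051: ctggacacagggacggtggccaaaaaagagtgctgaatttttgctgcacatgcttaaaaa
Rpl19 A_44_P306185: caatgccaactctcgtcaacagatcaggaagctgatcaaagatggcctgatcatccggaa
Of the 31 genes with more than 1 probe tested, 25 had probes whose changes from d 2 to d 16 lay within 0.3 of each other (log2), with a median difference of 0.11. The 5 genes with a difference over 0.5 were Rps28 (1.59), Rpl37a (0.62), Rpl17 (0.61), Rpl37 (0.59) and Rpl7l1 (0.53).

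Rpl15 was the member that rose from d 2 to d 9. Its probe A_42_P732189 was dim, at 5.41, 5.78 and 5.47 on d 2, 6.31, 5.97 and 6.28 on d 9 and 5.65, 5.76 and 5.78 on d 16. The change was 0.64 ± 0.15 (log2, SE, limma adjusted p = 0.0254), or 1.55-fold. The bright Rpl15 probe, A_44_P365421, had a change of 0.08 ± 0.11 (adjusted p = 0.664). With the slide as a fixed block, where the comparison rests on 1 array of d 2 (dam 3), the change was 0.72 (adjusted p = 0.14).

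All changes to d 16 go with the slide of d 16. They also go with changes in cell type markers over the same days. Of 7 macrophage markers tested, 6 rose and Cd14 fell (-1.88, adjusted p = 0.00951). Of 7 mammary epithelial markers 4 fell, Krt19 (-2.29) and Krt8 (-1.16) among them, and 1 rose. Of 7 mammary secretory markers 4 rose, of 3 lymphocyte markers 2 rose, the 1 erythroid marker tested rose and the 1 platelet marker fell. Of 4 neutrophil markers tested, 0 passed. Over all probes 16% rose and 12.4% fell. The part of the marker changes in those of the members was not tested. Calls to d 16 depended on single arrays, and those over all probes fell too. In place of 8 members (beside 28.5% of all probes), 1 passed without d 16 of dam 3 (beside 16.3%). Without d 16 of dam 2 there were 2 (beside 18.5%), and without d 2 of dam 2 there were 2 (beside 19.4%). Without d 2 of dam 1 or of dam 3 there were 5 (beside 24.4 and 23.7%).

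**Figure D4:**
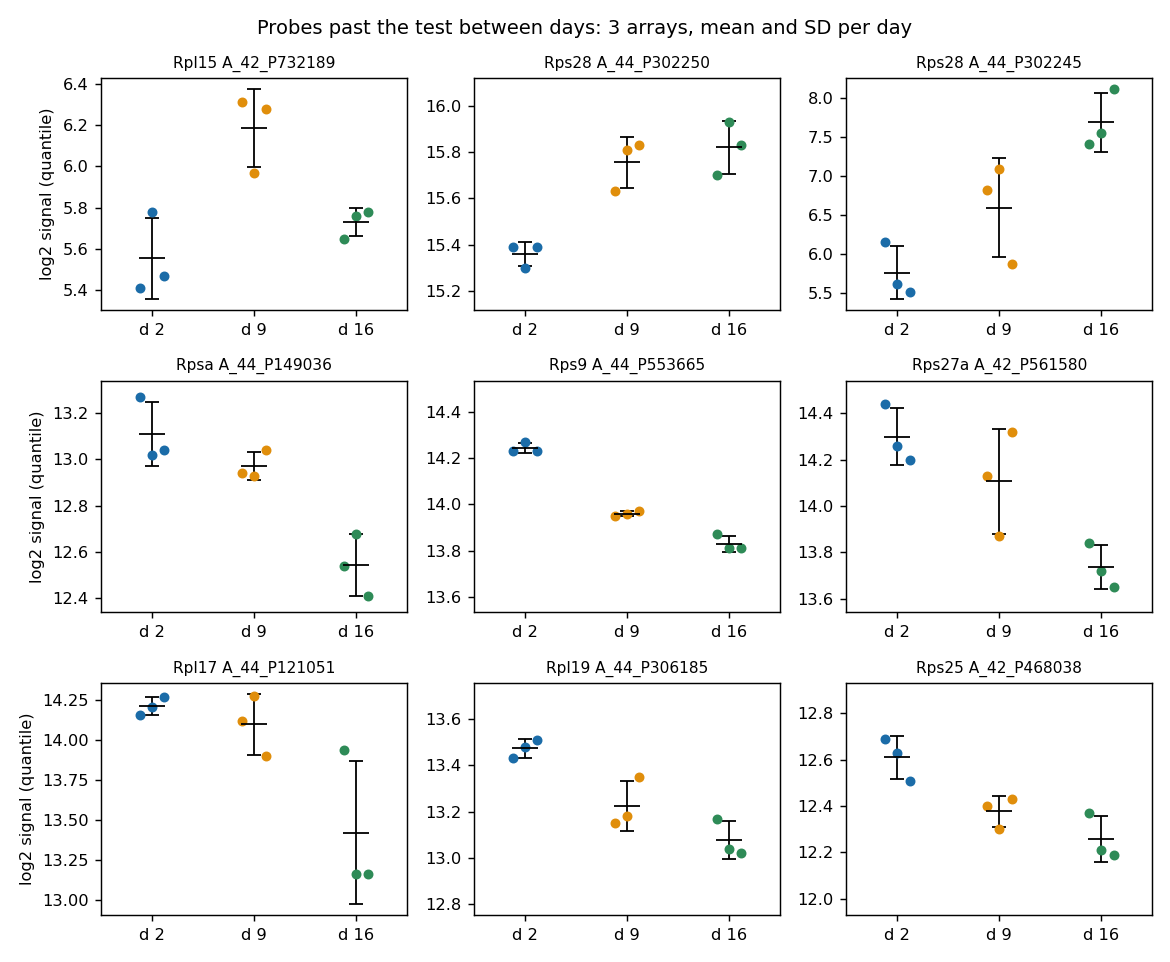
Quantile normalized log2 signal on d 2, d 9 and d 16 of the 9 ribosomal protein probes that passed an adjusted p of 0.05 in limma between 2 days. Points are the 3 dams, bars the mean and SD, and the vertical axes differ between panels. Both Rps28 probes rise from d 2 to d 16, Rpl15 is highest on d 9, and the other 6 are lowest on d 16.

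By role, most groups held no called gene when each gene was taken by 1 probe. The stalk proteins Rplp1 and Rplp2 had changes from d 2 to d 16 of -0.1 and 0.3 (adjusted p = 0.559 and 0.0913), and 0 of 2 passed for any pair of days. Rpl5 and Rpl11, which carry the 5S RNA and can bind Mdm2, had changes of -0.01 and -0.16 (adjusted p = 0.971 and 0.306). Around the tunnel exit, 0 of 9 genes passed by their brighter probe, with medians of 0.09, -0.1 and -0.16 for the 3 pairs of days. Rpl17 and Rpl19, which are among them, each passed to d 16 by their other probe. At the mRNA entry 1 of 3 passed, which was Rps9, while Rps2 and Rps3 had changes of -0.13 and -0.24 (adjusted p = 0.392 and 0.131). Rps6, the target of S6 kinase, had one of -0.13 (adjusted p = 0.539).

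Of the members often used as reference genes, Rps18, Rpl13a, Rpl32, Rpl19 and Rps29 were tested by 1 probe each. By that probe 0 of 5 passed in any pair (beside 17.6, 28.5 and 1.42% of all probes). Rps18 was 14.85 on d 2, 14.85 on d 9 and 14.67 on d 16 (means), with an SD over whey of 0.14. Rpl19 A_43_P14985 had the lowest SD of them, 0.08, and Rpl32 had 0.1. The other Rpl19 probe, A_44_P306185, did fall from d 2 to d 16 (-0.4, limma adjusted p = 0.0305). The Rpl32 probe shares 30 or more bases with a probe of another gene name. The means of the reference genes hold relative to the rest of the array only.

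Of the paralogues, Rpl10l, a retrocopy of Rpl10 known from testis, was dim, with means of 5.7, 6.15 and 5.94 on d 2, d 9 and d 16 and no signal above background in serum. Its probe and a probe of Rpl10 overlap by 41 bases when aligned and differ at 5 of them, in capitals, and no cross-hybridization was measured.
Rpl10 A_42_P552949: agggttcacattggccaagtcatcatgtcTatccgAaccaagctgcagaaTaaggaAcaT
Rpl10l A_44_P340345: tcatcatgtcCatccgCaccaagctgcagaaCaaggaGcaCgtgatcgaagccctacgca
Rpl22l1 A_44_P288536, a paralogue of Rpl22, had means of 10.16, 10.17 and 9.94, and Rpl7l1 A_44_P527726 of 6.48, 6.74 and 6.29. None of these 3 passed the test in any pair of days by that probe (beside 17.6, 28.5 and 1.42% of all probes).

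Other genes of translation are given for comparison, and the difference between lists was not tested. Of all probes, 17.6% passed to d 9 and 28.5% to d 16. With 1 probe per gene, 0 of 77 ribosomal protein genes rose and 0 fell to d 9 from d 2, then 0 rose and 4 fell to d 16. Of 37 translation factors 8 rose and 0 fell, then 9 rose and 6 fell. Of 69 mitochondrial ribosomal proteins 12 rose and 0 fell, then 8 rose and 11 fell. Of 40 ribosome biogenesis genes 3 rose and 2 fell, then 2 rose and 11 fell.

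Among 12 other mRNAs with a TOP motif, Pabpc1, the poly(A) binding protein, rose by 0.64 and 0.82 (log2) to d 9 and d 16 (adjusted p = 0.0155 and 0.00382). Npm1, a nucleolar chaperone, rose by 0.35 and 0.42 (adjusted p = 0.0453 and 0.0161), and Eef1a1, an elongation factor, rose by 0.54 to d 9 (adjusted p = 0.0409). Gnb2l1, the scaffold protein RACK1 of the small subunit, had -0.57 from d 2 to d 16 (adjusted p = 0.00783), the same direction as Rpsa and Rps9. Fau, whose product is fused to a ubiquitin-like protein, had 0.26 (adjusted p = 0.199). The median SD over whey was 0.14 for ribosomal protein genes, 0.26 for translation factors, 0.2 for mitochondrial ribosomal proteins, 0.31 for biogenesis genes and 0.22 for the other TOP mRNAs.

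Scaling each array to its spike-in probes gave another view, because it keeps differences in total signal per RNA labeled. On that scale the members moved together with nearly the whole array. The median log2 signal of the 119 members was 12.99, 13.63 and 14.09 on d 2 for dams 1, 2 and 3, 14.03, 14.85 and 16.08 on d 9, and 13.61, 14.46 and 14.02 on d 16. Each dam was higher on d 9 than on d 2, by 2.06, 2.33 and 3.98-fold. Each was lower again on d 16 than on d 9, by 1.33, 1.32 and 4.18-fold. Set against d 2, d 16 was at 1.54 and 1.77-fold in dams 1 and 2 and at 0.952-fold in dam 3, so the dams did not move alike. All 119 members were higher on d 9 than on d 2 in dam 1, in dam 2 and in dam 3. Dam 3 on d 9 stood highest, and dam 1 on d 2 lowest.

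All probes shifted in the same way, with median log2 changes of 1.52 (d 9 against d 2), 0.59 (d 16 against d 2) and -0.93 (d 16 against d 9). The members' medians were 1.46, 0.49 and -0.94, which is -0.06, -0.09 and -0.01 relative to all probes. The SD over whey was 0.89 for members and 0.97 for all probes with signal above background on each whey array. The middle 50% of members lay between 1.38 and 1.58 from d 2 to d 9, and that of all probes between 1.13 and 1.89.

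From d 2 to d 9, 21 members rose under spike-in scaling (17.6%, beside 42% of all probes called and 41.6% called as higher). With the dam as a block, 116 rose (beside 78.6% of all probes). The number called without the block varied with the array left out. It was 0 without d 2 of dam 1 or dam 2 and 22 without d 2 of dam 3. It was 1 without d 9 of dam 2 or dam 3, and 116 without d 9 of dam 1. Without an array of d 16 it was 3, 5 or 11. The share of all probes called was not computed for these fits, so the swings cannot be ascribed to the members rather than the whole array. In the fit of all 9 whey arrays without the block, spread was taken as equal for all probes, so each change had an SE of 0.71. Of the 21, the changes of Rps28 A_44_P302245 (2.37, adjusted p = 0.0101), Rpl15 A_42_P732189 (2.14, adjusted p = 0.0177) and Rpl10l A_44_P340345 (1.95, adjusted p = 0.0264) were the largest. Rplp2, Rps14, Rps20, Rpl30, Rpl5, Rpl3 and Rps7 were among the others.

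From d 2 to d 16, 1 member rose on the spike-in scale (0.84%, beside 4.53% of all probes), which was Rps28 A_44_P302245 with 2.57 ± 0.71 (limma adjusted p = 0.0105). The changes of Rpsa A_44_P149036, Rps9, Rps27a, Rps25 A_42_P468038 and Rpl19 A_44_P306185 were 0.08, 0.23, 0.08, 0.23 and 0.24 there, and that of Rpl17 A_44_P121051 was -0.13, with none past the test. All 6 lay below the median of all probes on this scale, 0.59, and the turn in sign of the first 5 goes with that shift of the whole array. From d 9 to d 16, no member passed in limma (beside 0.944% of all probes), 3 had an unadjusted p under 0.05 (beside 13.1%), and 3 fell with the dam as a block (beside 10.1%). The F test called 1 member (beside 17%), and 110 of 119 with the dam as a block (92.4%, beside 78.8%).

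**Figure D5:**
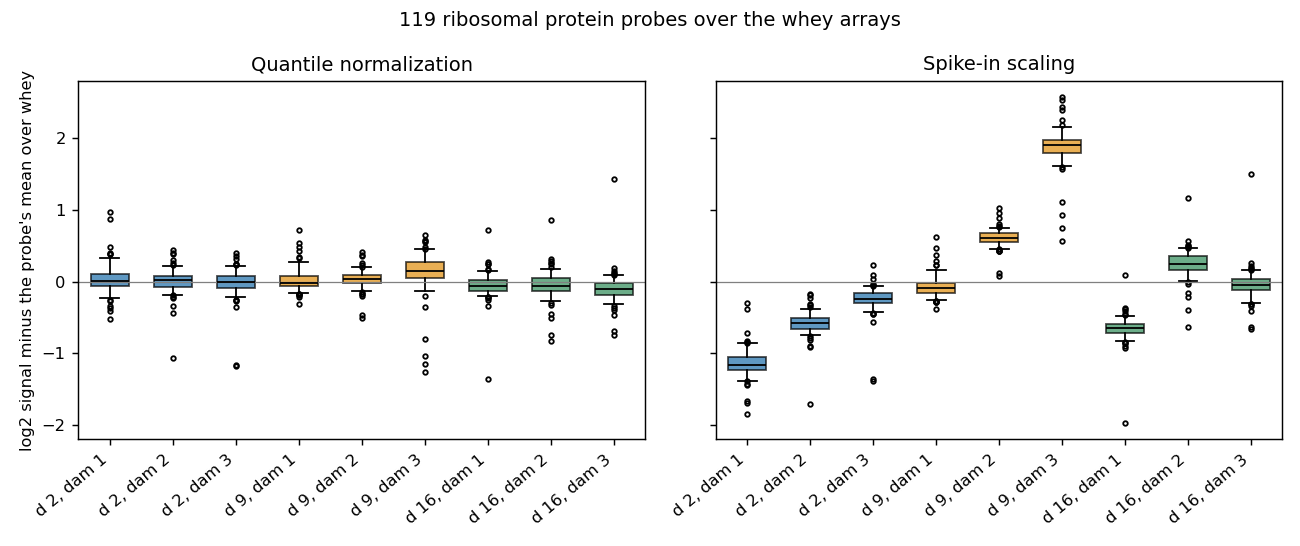
Log2 signal of the 119 ribosomal protein probes minus each probe's mean over whey, per whey array, after quantile normalization (left) and spike-in scaling (right). Boxes hold the middle 50% of probes, whiskers the 5th to 95th percentile. On the left all boxes lie near 0, and on the right they move together, highest for d 9 of dam 3.

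The serum pool had 1 array, so no test was made. Over the 119 members above background on any array, whey minus serum had a median of 0.6 (log2), beside 0.77 over all 21145 such probes. This was 3.79 under spike-in scaling (beside 2.69) and -0.17 when arrays were scaled to the 75th percentile of probes above background on all 10 arrays (beside -1.27), so its direction depends on the scaling. After quantile normalization 4 members were over 4-fold higher in whey (3.36%, beside 27.3%) and none was over 4-fold higher in serum (beside 15.7%). All 4 were not well above background in serum. Of the 113 members above background on all arrays none was over 4-fold apart, and the share of all such probes was not computed.

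For probes not above background in serum only a bound can be given. It was at least 1.8-fold higher in whey for Rps28 A_44_P302245 and at least 1.54-fold for Rpl7l1 A_44_P527726, and it was 1.06-fold for Rpl10l. Scaled to the 75th percentile of probes detected on all arrays these bounds were 0.12, -0.08 and -0.64 (log2), so on that scale no bound is left for Rpl7l1 and Rpl10l. For Rpl15 A_42_P732189, Rps26 A_43_P11759 and Rpl7l1 A_44_P265374 the serum limit was above the whey mean. Under spike-in scaling 117 members were over 4-fold higher in whey (98.3%, beside 60.6% of all probes).

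Of the members above background on all arrays, the largest differences toward whey were at Rps28 A_42_P468632 (1.54), Rpl8 A_42_P774045 (1.54), Rpl22l1 A_44_P361202 (1.53), Rps28 A_44_P302250 (1.39) and Rpl7a A_42_P752901 (1.37), on the quantile scale. Scaled to the 75th percentile of probes detected on all arrays these were 0.2, -0.01, 1.32, 0.39 and 0.08, so only Rpl22l1 stayed well above 0 and Rpl8 turned. The largest toward serum were Rpl37 A_44_P137047 (-1.94) and Rpl37a A_44_P179210 (-1.89), both probes of the opposite direction, at 8.32 and 8.88 in serum and at 5.12 to 7.26 and 5.84 to 7.96 in whey. They were below serum on every whey array. Under spike-in scaling the same differences were 1.78 and 1.86. Rps27 A_44_P1006655 (-0.28), Rps14 A_44_P334709 (-0.28) and Rps15 A_44_P179338 (-0.22) came next and were within 0.3 of 0.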

How the data were processed

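RNA of whey (9 arrays) and of pooled serum (1 array) was hybridized to 1-colour Agilent arrays. The authors extracted the images with Agilent Feature Extraction 9.5.3.1 and deposited per-array intensity values: a background-subtracted processed signal, mean signals and local background. The deposited flags (other columns) mark spots well above background, saturated spots and outliers. No member spot was saturated or an outlier. A deposited table of 10 normalized columns, whose names match no sample, was not used.

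Members and lists were chosen with earlier results of these data known. Log2 processed signal of 43379 non-control spots was quantile normalized over 10 arrays, as the methods state for GeneSpring, outlier spots were left out and spots of a probe averaged (limma 3.58.1, R 4.3.3). Detection needed the well above background flag and more than 20 of processed signal, on 1 or more arrays of a group. The 16849 probes detected in whey were tested with limma over 9 whey arrays, two-sided, with Benjamini-Hochberg adjustment and a threshold of 0.05. Spike-in scaling subtracted the mean log2 signal of 9 spike-in probes. The shares sum processed signals by probe. Alternatives were other normalizations (75th percentile, spike-in, whey only), normexp background correction (offset 50), filters, dam and slide blocks, a mean-variance trend, the methods' Tukey-Kramer test and leaving out arrays. The fit was tested on simulated data with known answers, made with the spread of the probes tested. From d 2 to d 16 it recovered 36 of 100 probes with a log2 change of 1 and 66 of 100 with one of 2. It made 4 false calls. In the simulated data 200 of 16842 probes were changed, while 28.5% of all probes were called from d 2 to d 16 in the real data. Members also had a smaller median SD within a day (0.1) than all probes above background on all whey arrays (0.19). The recovered shares are therefore not those of the members. A probe that did not pass may still have changed.

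All called probes were named, with 1 probe per gene in lists (above background on most whey arrays, then brighter). The other named probes were the 5 smallest and largest SD, the 5 largest serum differences each way and the role lists. Equal replicate numbers are the same dam. Deviations from the day mean correlated from -0.02 to 0.22 (mean 0.1) between arrays of the same dam and from -0.25 to 0.16 (mean -0.05) between dams. Of member accessions, 104 of 122 were found in RefSeq (GRCr8), 103 under the same symbol, and Rpl37 A_43_P12513 is Rpl37l1 there. Probe positions are those of the array design (rn4). The number of arrays limits the precision.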

Additional observations from a re-analysis of the deposited data

How the results depend on the processing

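Among called members, signs turned under spike-in scaling only, on which all probes shift by 0.59 from d 2 to d 16: Rpsa 0.08, Rps9 0.23, Rps27a 0.08, Rps25 0.23 and Rpl19 0.24. Of the 8 changes to d 16, Rps28 A_44_P302245 passed in all 20 alternatives and the others in 7 of 20 (Rps25) to 18 of 20 (Rpsa). Percentages in this paragraph are the share of all probes called under the same setting. In place of 1 member from d 2 to d 9, 21 passed with spike-in scaling (42%), 14 with normexp (20.4%), 4 with no filter (5.97%), 6 over probes above background on all whey arrays (29%), 9 with a mean-variance trend (22.3%), and 3 each with slide as a random block (21.7%, consensus correlation -0.08) and with the Tukey-Kramer test (7.7%). With the replicate block, pairing arrays of a dam, 2 passed (18.4%). With slide as a fixed block 1 passed, another than Rpl15 (2.96%), since this fit has 1 array of d 2 on the slide of d 9. From d 2 to d 16, in place of 8, 5 passed with the 75th percentile over all probes (25.4%), 1 with spike-in scaling (4.53%), 24 with normexp (29.3%), 15 over probes above background on all whey arrays (40.4%) and 21 with the trend (32.1%). The replicate block ended the calls of Rps25 (adjusted p = 0.0594) and Rpl19 (adjusted p = 0.0508). Scaled to the 75th percentile of probes above background on all 10 arrays, 4 rose and 2 fell, in place of 2 and 6. From d 9 to d 16, in place of 0, 12 passed with normexp (5.07%), 1 over probes above background on all whey arrays (5.46%) and 1 with the trend (3.88%). The F test, in place of 6, gave 2 and 3 with the 75th percentile over detected and all probes (26.7 and 23.6%), 1 with spike-in scaling (17%), 34 with normexp (30.6%), 13 over probes above background on all whey arrays (42%), 3 with the replicate block (25.7%), 10 with slide as a random block (32.9%) and 24 with the trend (31.9%). Under spike-in scaling the replicate block gave 116 in place of 21 from d 2 to d 9 (78.6%), 3 in place of 0 from d 9 to d 16 (10.1%) and 110 in place of 1 in the F test (78.8%). This block and the leave-one-out fits on that scale were chosen after seeing the data.

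Medians under spike-in scaling were 1.46, 0.49 and -0.94 and the SD 0.89, and the median from d 9 to d 16 was -0.01 with the 75th percentile over detected probes. The share of signal on d 2, d 9, d 16 and in serum was 11.7, 18.9, 17 and 4.74% with normexp, 22.4, 21.4, 21.8 and 19% without the 20 brightest probes, and 24.2, 25.6, 23.4 and 9.14% summed over spots, the last chosen after seeing the data. Members over 4-fold higher in whey than in serum were 1 with the 75th percentile over detected probes (beside 5.53% of all probes). They were 117 with spike-in scaling (beside 60.6%) and 0 with normexp (beside 2.45%). Over probes above background on all arrays they were 0, and the share of all such probes was not computed. With the 75th percentile over detected probes, 2 members were over 4-fold higher in serum (beside 38.8%). Leaving out 1 array gave 0 to 3 members from d 2 to d 9 (beside 7.51 to 16.1% of all probes). From d 2 to d 16 it gave 1 to 8 (beside 16.3 to 29%). From d 9 to d 16 it gave 0 to 0 (beside 0.131 to 1.54%). In the F test it gave 0 to 6 (beside 14.2 to 25.2%), with none left without d 16 of dam 3. Under spike-in scaling it gave 0 to 116, 0 to 1 and 0 to 2. Leaving out 1 array also gave an SD of 0.11 to 0.15 and 119 detected on each day. It gave 4 higher in whey and 0 to 2 higher in serum, the 2 without d 2 of dam 1. The share of all probes was not computed for the fits under spike-in scaling or for these serum counts. The cause of these differences was not tested.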
